A study of Danio rerio with 35 samples.

Results

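The genes described here belong to the ventral BMP (bone morphogenetic protein) programme of the zebrafish embryo, 6 in number, and were followed by their Ensembl identifiers in the deposited expression tables. They are the ligand genes bmp4 (ENSDARG00000019995) and bmp7a (ENSDARG00000018260), the signal transducer smad5 (ENSDARG00000037238), and the ventral and posterior target genes id1 (ENSDARG00000040764), eve1 (ENSDARG00000056012) and cdx4 (ENSDARG00000036292). All 6 were found among the 27997 entries of the exon table and the 24750 entries of the intron table. smad5 was also among the 9411 entries of the ribosome profiling table. Of the 6, 5 were near 0 in the 2 hpf embryo and rose during early zygotic transcription, whereas smad5 was present from the start. Combined loss of Nanog, SoxB1 and Pou5f1 lowered these 5 genes by different amounts at 6 hpf. With loss of Pou5f1 alone the falls of id1 and bmp7a did not pass the test. The exon level of smad5 stayed close to that of wild type in the deposited values. After the libraries were rescaled to a common median, smad5 was lower with Nanog and SoxB1 reduced together.

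BMP ligands are secreted proteins that pattern the early embryo from dorsal to ventral. They bind paired serine/threonine kinase receptors, which phosphorylate Smad1, Smad5 and Smad8/9. The phosphorylated Smads enter the nucleus with Smad4 and activate target genes on the ventral side, while organizer proteins such as Chordin and Noggin bind the ligands on the dorsal side. In zebrafish, Bmp7a pairs with Bmp2b as the main ligand of the gastrula, Bmp4 acts later and in the tail, and maternal Smad5 is needed for the first steps of the pathway. id1 codes for an inhibitor of basic helix-loop-helix factors and is a direct target of BMP signalling in vertebrates. eve1 and cdx4 code for homeodomain proteins of the ventral and posterior embryo.

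The study concerns the part of the maternal factors Nanog, SoxB1 and Pou5f1 in switching on the zygotic genome. Whole embryos were collected at 2, 4, 6 and 8 hours post fertilization (hpf), 5 per RNA library, and 50 per condition at the 64-cell stage for ribosome profiling. Wild type (WT) embryos were of the TUAB strain, and MZpou5f1 embryos carried the hi349Tg allele on both chromosomes and lacked maternal and zygotic pou5f1 (listed in the annotation as pou5f3). Nanog and SoxB1 were reduced by morpholinos (MO), antisense oligonucleotides injected at the 1-cell stage, into TUAB or MZpou5f1 embryos. Nanog+SoxB1 MO in MZpou5f1 embryos is called triple loss here, and at 4, 6 and 8 hpf some of these embryos also received rescue mRNA, which the labels do not describe further. Other TUAB embryos received, also at the 1-cell stage, alpha-amanitin, which blocks RNA polymerase II, or U1 and U2 MO against splicing RNAs. Embryos of the TUAB strain were bathed from the 32-cell stage in cycloheximide, an inhibitor of translation. WT and plain MZpou5f1 embryos are labelled as untreated, so no library controls for an injection or a control morpholino. Of the 31 RNA libraries, 24 are rRNA-depleted total RNA and carry intron values, and 7 are poly(A)+ RNA. WT total RNA at 6 hpf has 3 libraries and Nanog+SoxB1 MO at 6 hpf has 2, and every other group has 1. The replicates are labelled only as separate samples, so p-values measure the spread between these samples. All 6 hpf comparisons with WT share the same 3 WT libraries.

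Relative depth, with WT total RNA at 4 hpf set to 1, ran from 0.227 in Nanog+SoxB1 MO replicate 1 at 6 hpf to 2.58 in cycloheximide at 4 hpf. The check of the targeted locus found pou5f3 at 394 to 488 RPKM (reads scaled to exon or intron length and library size) in WT at 6 hpf and at 0.646 to 4.63 RPKM in the 3 MZpou5f1 total RNA libraries of that stage. At 4 hpf, however, the library labelled MZpou5f1 had a pou5f3 level of 28.0 RPKM, where WT had 157 RPKM, whereas the other MZpou5f1 libraries without rescue mRNA held 0.088 to 1.87 RPKM. Morpholinos block translation or splicing and need not lower the message, so the nanog and sox19b levels check nothing. In bulk RNA, fewer cells of a type and less RNA per cell cannot be told apart. Markers of other cell groups also differed at 6 hpf, in a comparison where 14.0% of all genes were called lower and 30.3% higher. In Nanog+SoxB1 MO, 5 of 5 yolk syncytial layer markers fell, with a summed level of 4.04 to 5.18 RPKM against 307 to 330 RPKM in WT, and MTTP was at 0.257 and 0.776 RPKM and HNF4A at 0 and 0.386 RPKM. The sum of these markers was 10.3 RPKM in Nanog MO, 200 in MZpou5f1, 136 with SoxB1 MO added and 0.558 RPKM in triple loss. Of the 6 enveloping layer markers 4 fell, with a sum of 830 to 940 RPKM against 2572 to 3116 RPKM in WT. Of the 7 oocyte-derived messages 6 were higher, with a sum of 399 to 437 RPKM against 76.7 to 120 RPKM in WT, and 3 of 5 germ cell markers were higher, with sums of 183 to 195 RPKM against 94.1 to 132 RPKM. In Nanog MO, MZpou5f1, MZpou5f1 with SoxB1 MO and triple loss the enveloping layer sums were 1342, 2060, 1173 and 303 RPKM, and the oocyte-derived sums 535, 193, 292 and 749 RPKM. Their part in the results below was not tested.

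In WT total RNA the ligand genes switched on at different times. bmp7a stood at 0.313 RPKM at 2 hpf, from 8 reads, and at 7.16 RPKM at 4 hpf. At 6 hpf its 3 libraries held 51.6, 47.2 and 64.1 RPKM. bmp7a was therefore already above its 2 hpf level at 4 hpf and higher again in all 3 later libraries. For bmp4 the 2 and 4 hpf libraries held 0.428 and 0.318 RPKM, from 10 and 12 reads. Its exact 95% Poisson intervals, 0.206 to 0.789 and 0.165 to 0.557 RPKM, overlap and cover counting error only. At 6 hpf bmp4 held 29.5, 21.0 and 29.2 RPKM. The bmp4 message therefore appeared between 4 and 6 hpf in these libraries.

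Among the targets, id1 was high by 4 hpf, eve1 was not above its 2 hpf limit beyond counting error, and cdx4 had a first few reads. id1 went from 0.513 RPKM at 2 hpf, from 4 reads, to 154 RPKM at 4 hpf and to 520, 466 and 431 RPKM at 6 hpf. It was the highest of the 6 genes in exon RPKM, a level per length, at both later stages. eve1 was at 0 reads at 2 hpf, which allows up to 0.281 RPKM, and at 0.347 RPKM (interval 0.128 to 0.757) at 4 hpf. Its 6 hpf libraries held 160, 123 and 150 RPKM. cdx4 was at 0 reads at 2 hpf, which allows up to 0.241 RPKM, at 0.643 RPKM (interval 0.343 to 1.10) at 4 hpf from 13 reads, and at 87.2, 45.3 and 42.2 RPKM at 6 hpf. The first cdx4 library is the highest by almost the whole range of the 3.

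smad5 ran the other way. Its exon level was 55.7 RPKM at 2 hpf, then 44.3 at 4 hpf, and 28.9, 32.2 and 30.2 RPKM at 6 hpf. In a limma fit on log2(RPKM + 0.5), 5 of the 6 genes were higher at 6 than at 4 hpf, where 22.4% of 15673 genes tested were called higher. The changes ran from 1.61 ± 0.16 (SE) for id1 to 7.41 ± 0.28 for eve1, and the largest of their adjusted p-values was 0.000121. smad5 was called lower, by -0.54 ± 0.15 with an adjusted p of 0.0168, beside 38.3% of genes called lower. That direction depends on scaling, since after rescaling libraries to a common median the smad5 change was 0.0105, while the median of all genes moved from -0.38 to 0.10. Against 2 hpf the same 5 genes were higher, beside 26.3% of genes, and smad5 was lower by -0.86 ± 0.15, beside 42.3%. The smad5 call was not made after rescaling, at an adjusted p of 0.256. The single 2 and 4 hpf libraries were assumed to vary like the 6 hpf replicates. This fit holds 5 libraries at 6 hpf, so its filter of 1 RPKM in 2 libraries favours genes present at that stage. eve1 passed it only through the WT libraries at 6 hpf, so its call there is no independent result.

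**Figure D1:**
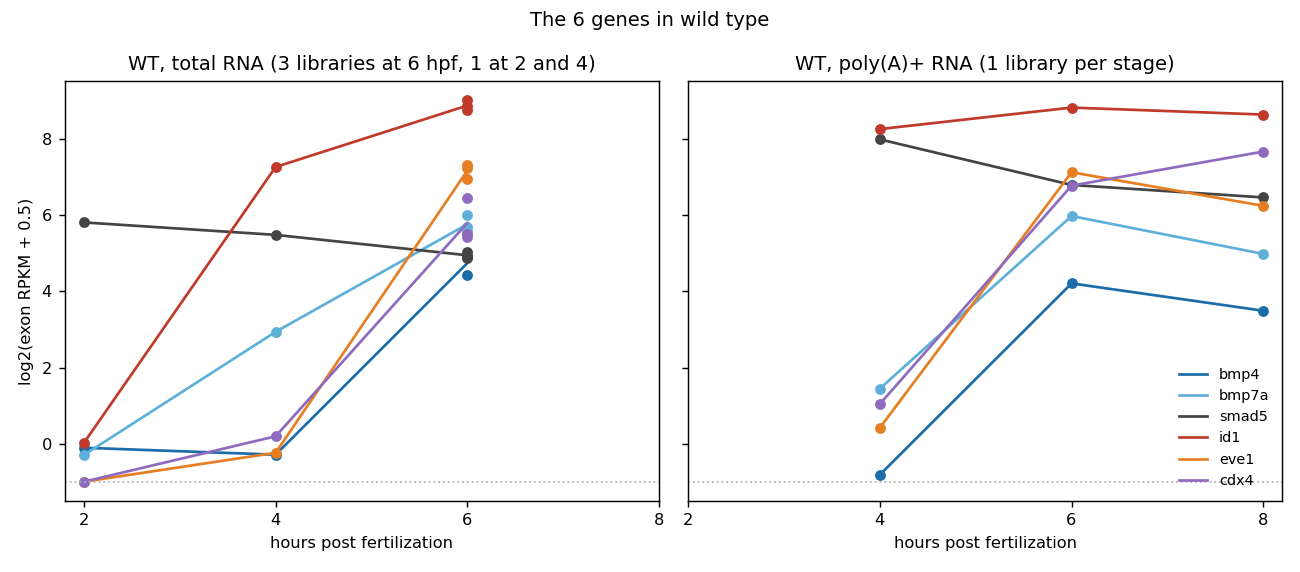
Exon level of the 6 genes in WT, as log2(RPKM + 0.5), against hours post fertilization, in total RNA (left) and poly(A)+ RNA (right). Points are libraries, lines join group means, and the dotted line marks a level of 0. smad5 starts high and declines, id1 and bmp7a are above their 2 hpf level by 4 hpf, and bmp4, eve1 and cdx4 are near 0 until 6 hpf.

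Poly(A)+ RNA carried the WT series to 8 hpf, with 1 library per stage and no test. From 6 to 8 hpf bmp4 went from 18.004 to 10.7 RPKM and bmp7a from 62.6 to 31.2 RPKM. eve1 went from 139 to 75.5 RPKM and id1 from 454 to 400 RPKM, whereas cdx4 went from 109 to 203 RPKM. cdx4 was the only one of the 6 with a higher value at 8 than at 6 hpf. None of the 6 passed a 4-fold difference, which 0.564% of 12757 genes passed downward and 0.510% upward.

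smad5 stood apart in the RNA selection. At 4 hpf it was at 254 RPKM in poly(A)+ RNA and at 44.3 RPKM in total RNA, a log2 ratio of 2.51 where the median of all genes was -0.22. Only 2.17% of 13769 genes were 4-fold or more higher in poly(A)+ RNA. In the same pair id1 was at 307 against 154 RPKM, and bmp7a at 2.22 against 7.16 RPKM. In poly(A)+ RNA smad5 went on to 111 RPKM at 6 hpf and 88.0 RPKM at 8 hpf.

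At 6 hpf both ligand genes were lower without the factors, but in different orders. bmp4, at 21.0 to 29.5 RPKM in WT, was at 2.21 RPKM in Nanog MO, and at 4.66 and 3.52 RPKM in the Nanog+SoxB1 MO libraries. In MZpou5f1 embryos bmp4 was at 0.784 RPKM without a morpholino, at 0.080 RPKM, a single read, with SoxB1 MO, and at 0.462 RPKM in triple loss. Every one of these libraries lay below the lowest WT library, and the MZpou5f1 libraries lay below the Nanog and Nanog+SoxB1 MO libraries.

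bmp7a, at 47.2 to 64.1 RPKM in WT, was at 27.4 RPKM in Nanog MO, and at 0.958 and 0.883 RPKM in Nanog+SoxB1 MO. MZpou5f1 embryos held 25.5 RPKM of bmp7a, falling to 7.62 RPKM with SoxB1 MO and 0.422 RPKM in triple loss. The libraries again all lay below WT, but here Nanog MO and MZpou5f1 alone lay near each other and the combinations lay far lower.

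Among the targets, id1 was, like bmp7a, far lower with Nanog and SoxB1 MO together than in the other conditions. Its WT libraries held 431 to 520 RPKM, MZpou5f1 398 RPKM, Nanog MO 158 RPKM and MZpou5f1 with SoxB1 MO 146 RPKM. Nanog+SoxB1 MO held only 5.24 and 5.53 RPKM, from 15 and 21 reads, and triple loss 11.3 RPKM. eve1, at 123 to 160 RPKM in WT, was at 55.8 RPKM in MZpou5f1, 5.25 RPKM in MZpou5f1 with SoxB1 MO and 4.10 RPKM in Nanog MO. It was at 0.509 and 0.768 RPKM in Nanog+SoxB1 MO, from 2 and 4 reads, and at 0.388 RPKM in triple loss. id1 and eve1 were thus lowest where Nanog and SoxB1 were both reduced.

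cdx4 was ordered like bmp4. It held 42.2 to 87.2 RPKM in WT, 16.3 and 15.1 RPKM in Nanog+SoxB1 MO, 7.28 RPKM in Nanog MO and 4.89 RPKM in MZpou5f1. In triple loss it held 0.332 RPKM, and MZpou5f1 with SoxB1 MO had no cdx4 read, which makes it at least 129-fold lower than the WT mean when 3 reads in that library are taken as the floor. Both Nanog+SoxB1 MO libraries lay above the Nanog MO library for cdx4 and for bmp4.

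smad5 held 28.9 to 32.2 RPKM in WT, 28.6 RPKM in Nanog MO, and 30.1 and 29.5 RPKM in Nanog+SoxB1 MO. It held 34.9 RPKM in MZpou5f1, 37.5 RPKM with SoxB1 MO added and 33.7 RPKM in triple loss. The Nanog+SoxB1 MO libraries lay inside the WT range, Nanog MO lay just below it, and the 3 MZpou5f1 libraries lay just above it.

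**Figure D2:**
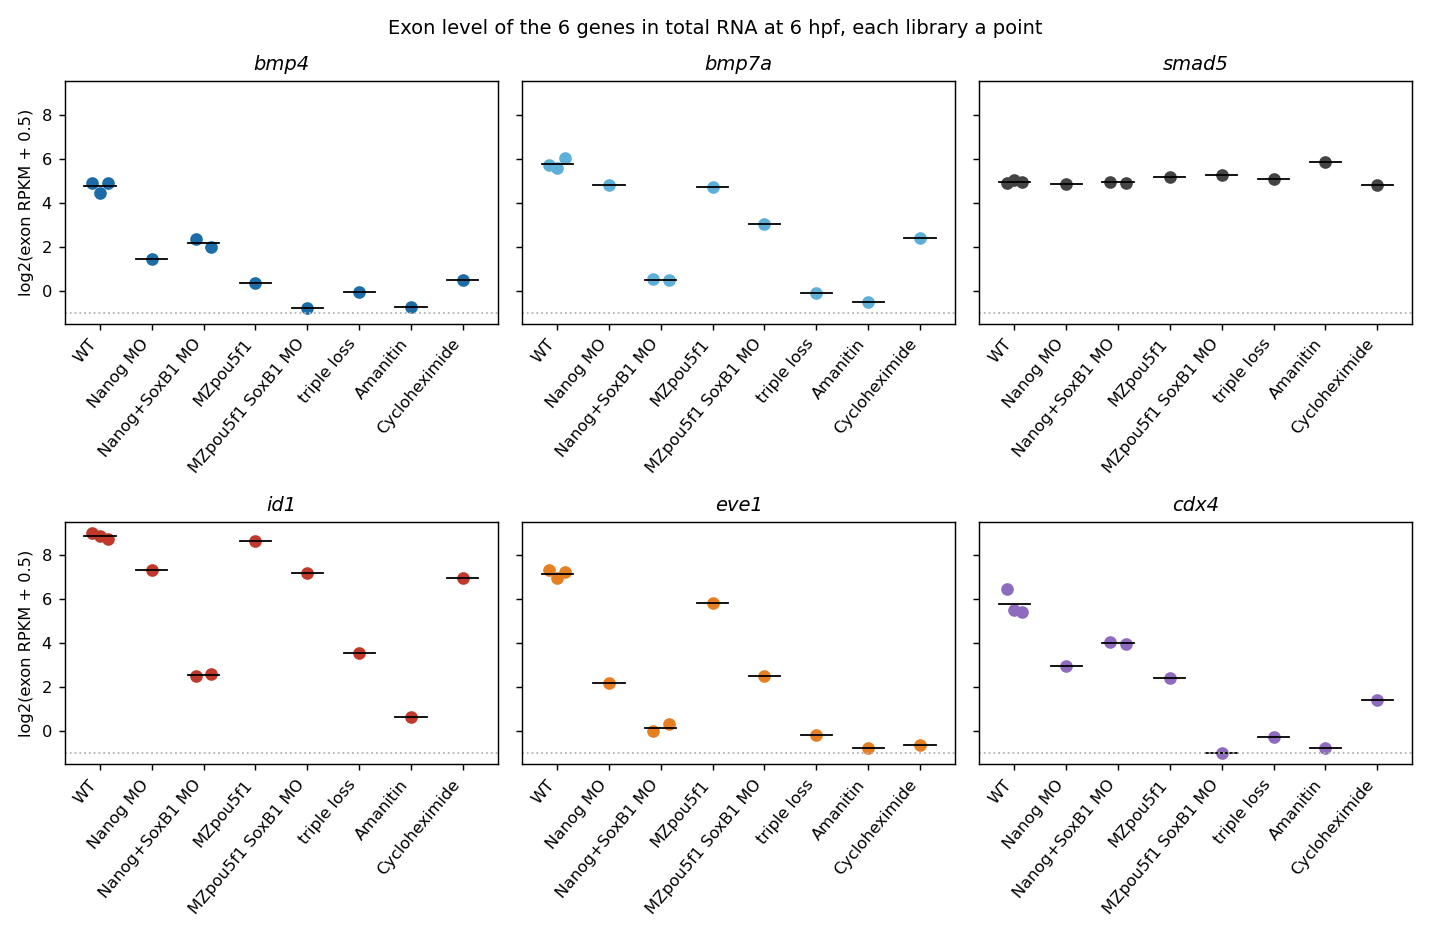
Exon level of each gene in total RNA at 6 hpf, as log2(RPKM + 0.5), by condition. Each point is a library, black bars are group means, and the dotted line marks a level of 0. bmp4 and cdx4 are lower in Nanog MO than in Nanog+SoxB1 MO, bmp7a, id1 and eve1 are the reverse, and smad5 stays within 27.7 to 57.6 RPKM in all 11 libraries.

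In the limma fit across 16242 genes, 5 of the 6 genes were lower in Nanog+SoxB1 MO (n = 2) than in WT (n = 3), where 14.0% of genes were called lower. The log2 changes were -2.56 ± 0.28 (SE) for bmp4, -5.26 ± 0.20 for bmp7a, -6.32 ± 0.12 for id1, -6.99 ± 0.22 for eve1 and -1.78 ± 0.34 for cdx4. Adjusted p-values of these 5 ran from 2.15e-06 for id1 to 0.00607 for cdx4. The cdx4 call was lost without either Nanog+SoxB1 MO replicate, at adjusted p-values of 0.0662 and 0.0736. The smad5 change was -0.03 ± 0.11 with an adjusted p of 0.857. Rescaling, which moved the median of all genes from 0.30 to 0.02, took it to -0.35 with an adjusted p of 0.038, so its lack of a call rests on the scaling. The median change of the 6 genes was -3.91, against 0.30 over all genes. It is a description, since the 6 were chosen with earlier results of these data known.

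Nanog MO alone lowered the same 5 genes, beside 10.1% of all genes, with the largest changes in eve1 (-4.97 ± 0.27) and bmp4 (-3.30 ± 0.35) and the smallest in bmp7a (-0.96 ± 0.26, adjusted p = 0.0326). The bmp7a call was lost without WT replicate 1 or 2 or either Nanog+SoxB1 MO replicate, at adjusted p-values of 0.0564 to 0.0755. In MZpou5f1, 3 of the 6 were lower, beside 2.73% of all genes. These were bmp4 at -4.38 ± 0.35, cdx4 at -3.37 ± 0.43 and eve1 at -1.36 ± 0.27. The eve1 call, at an adjusted p of 0.0435, was lost whichever of the 5 replicated libraries was left out, at 0.0650 to 0.123. The cdx4 call was lost without either Nanog+SoxB1 MO replicate, at 0.0865 and 0.0862. id1 at -0.24 ± 0.15 and bmp7a at -1.06 ± 0.26 were not called, although bmp7a passed at an adjusted p of 0.047 after rescaling. MZpou5f1 with SoxB1 MO lowered 5 of the 6, beside 9.04% of genes, and triple loss lowered the same 5, beside 15.7%. In the former the changes ran from -1.69 ± 0.15 for id1 to -6.80 ± 0.43 for cdx4. cdx4 had no read there, so the size of its change depends on the pseudocount. It ran from -9.11 to -5.81 over the alternatives that kept all libraries. In triple loss the changes ran from -4.80 ± 0.35 for bmp4 to -7.34 ± 0.27 for eve1. All conditions but Nanog+SoxB1 MO have a single library, and the fit lends each the spread of the 5 replicated libraries.

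**Figure D3:**
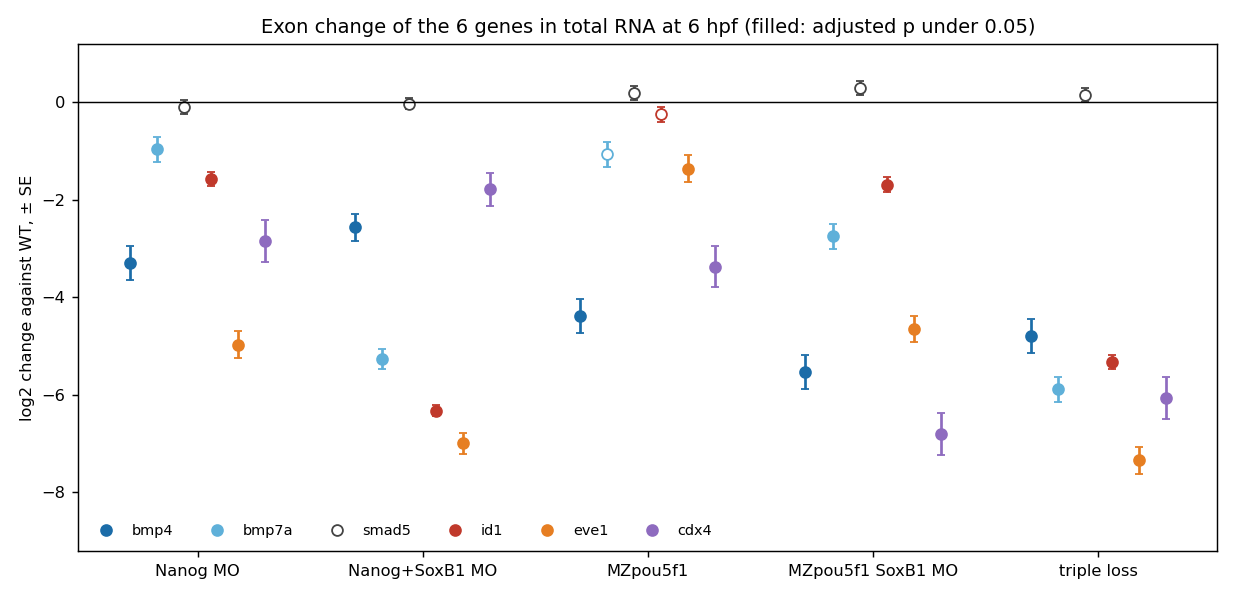
log2 change of each gene against WT in total RNA at 6 hpf, with SE bars, for the 5 loss conditions. Filled points passed an adjusted p of 0.05 and open points did not. smad5 lies within 0.30 of 0 in all 5 conditions, and id1 spans -0.24 to -6.32.

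Adding SoxB1 MO to Nanog MO split the 6 genes. Against Nanog MO, Nanog+SoxB1 MO was lower by -4.30 ± 0.27 for bmp7a, -4.75 ± 0.16 for id1 and -2.02 ± 0.29 for eve1, with adjusted p-values of 0.00589, 0.000156 and 0.0362. These are 3 of 6, beside 0.616% of all genes. bmp4 at 0.75 ± 0.37 and cdx4 at 1.06 ± 0.45 were not called, with adjusted p-values of 0.402 and 0.339. The 3 calls were lost without Nanog+SoxB1 MO replicate 1 or 2, which leaves 1 library on either side. The bmp7a values were then 0.149 and 0.117, the id1 values 0.0537 and 0.0504 and the eve1 values 0.2497 and 0.205. eve1 was also lost without any one of the WT libraries, at 0.0697 to 0.112.

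Adding MZpou5f1 to Nanog+SoxB1 MO was followed by calls for cdx4, bmp4 and id1. Triple loss was lower than Nanog+SoxB1 MO by -4.28 ± 0.45 for cdx4 and -2.24 ± 0.37 for bmp4, with adjusted p-values of 0.0069 and 0.0281, beside 3.12% of genes called lower. id1 was higher by 1.00 ± 0.16 with an adjusted p of 0.0237, beside 1.00% of genes called higher. bmp7a at -0.62 ± 0.27, eve1 at -0.35 ± 0.29 and smad5 at 0.18 ± 0.15 were not called. All 3 calls were lost without either Nanog+SoxB1 MO replicate, at 0.1002 to 0.169, and bmp4 was also lost without WT replicate 1 or 2, at 0.0684 and 0.0603. The id1 call was lost without WT replicate 2 as well, at 0.0723. The genes called lower on adding SoxB1 MO to Nanog MO were thus bmp7a, id1 and eve1. Those called lower on adding MZpou5f1 to Nanog+SoxB1 MO were bmp4 and cdx4. Both are comparisons of 2 libraries with 1. In Nanog+SoxB1 MO bmp7a, at 0.883 to 0.958 RPKM, and eve1, at 0.509 to 0.768 RPKM, were already near the pseudocount of 0.5. A further fall of bmp7a or eve1 could hardly be called there. In MZpou5f1 embryos the library with SoxB1 MO was lower than the one without it for every gene but smad5. There bmp4 went from 0.784 to 0.080 RPKM and cdx4 from 4.89 to 0 RPKM, a difference that was not tested.

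At 4 hpf the same losses could be tested only for the 4 genes that passed the filter of 1 RPKM in 2 libraries. bmp4 stayed at or under 0.849 RPKM in all 8 libraries and eve1 at or under 0.627 RPKM, and both were left untested. bmp7a was at 7.16 RPKM in WT, 1.75 in Nanog MO, 1.81 in SoxB1 MO and 0.192 RPKM, 3 reads, in Nanog+SoxB1 MO. In the library labelled MZpou5f1 it was at 5.68 RPKM, and at 0.661, 0.853 and 0.488 RPKM with Nanog MO, SoxB1 MO and both. id1 was at 154 RPKM in WT, 30.5 in Nanog MO, 52.8 in SoxB1 MO and 6.31 RPKM in Nanog+SoxB1 MO. It was at 135 RPKM in the library labelled MZpou5f1, and at 28.3, 79.3 and 24.2 RPKM with the same additions. Both genes were lower in each library with a morpholino than in the matching library without one.

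An additive limma fit of the 8 libraries, in which each loss is present in 4 and absent in 4, called 2 of the 4 genes lower with Nanog MO, beside 2.34% of 14498 genes. The changes were -2.30 ± 0.29 for id1 and -1.59 ± 0.30 for bmp7a, with adjusted p-values of 0.00342 and 0.0178. The bmp7a call was lost when any of 5 libraries was left out, at 0.0554 to 0.0642. These were WT, the library labelled MZpou5f1, MZpou5f1 with Nanog MO, SoxB1 MO alone, and Nanog+SoxB1 MO. smad5, not called at -0.29 ± 0.13, passed at an adjusted p of 0.0226 without the Nanog MO library. SoxB1 MO gave no call among the 4 (limma, 0.0552% of all genes lower and 0.0897% higher), although 3 of the 4 had an unadjusted p under 0.05 in the same fit. These were bmp7a at -1.46 ± 0.30, id1 at -1.18 ± 0.29 and smad5 at -0.41 ± 0.13. MZpou5f1 gave no call either (limma, 18% of genes lower and 24.1% higher), and none of the 4 had an unadjusted p under 0.05. Without the library labelled MZpou5f1, whose pou5f3 level goes against the label, cdx4 was called lower by -1.19 with an adjusted p of 0.0148, against -0.58 ± 0.49 with it. Without the triple loss library bmp7a was called lower by -0.73, with an adjusted p of 0.0379. This fit has no replicate of a condition, so its errors also hold effects that do not add up.

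The 4 and 6 hpf values of cdx4 pointed in opposite directions, beyond counting error at 4 hpf, in 4 conditions, and those of bmp4 in MZpou5f1. Other opposite signs were within counting error at 4 hpf, such as cdx4 in triple loss, at a ratio of 1.24 (interval 0.518 to 2.95). At 4 hpf cdx4 was at 0.643 RPKM in WT total RNA and 1.56 RPKM in WT poly(A)+ RNA. It was at 3.58 RPKM in Nanog MO, 1.97 in Nanog+SoxB1 MO, 2.79 in the library labelled MZpou5f1 and 1.01 RPKM in SoxB1 MO. The 13 WT reads and the 36 reads in Nanog MO give a ratio of 5.57, with an exact 95% binomial interval of 2.88 to 11.4 that covers counting error only. In MZpou5f1 embryos cdx4 was at 0.557 RPKM with Nanog MO, below WT, and at 0.269 RPKM, from 4 reads, with SoxB1 MO. In triple loss it was at 0.799 RPKM. The additive limma fit at 4 hpf did not call cdx4 with Nanog MO, at 0.42 ± 0.49 with an adjusted p of 0.659. The Nanog MO library was therefore the highest for cdx4 at 4 hpf. SoxB1 MO alone and MZpou5f1 with Nanog MO have no library at 6 hpf, and each of the other loss conditions lay below WT there.

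With alpha-amanitin, which leaves only the stored message, 5 of the 6 genes had 8 reads or fewer at 6 hpf. It left bmp4 at 0.091 RPKM, bmp7a at 0.209, eve1 at 0.1 and cdx4 at 0.085 RPKM, from 1 to 5 reads each, and id1 at 1.10 RPKM from 8 reads. smad5 was at 57.6 RPKM, above all 3 WT libraries and close to its 2 hpf level of 55.7 RPKM. The fit called the 5 lower, beside 28.7% of genes, and smad5 higher by 0.91 ± 0.14 with an adjusted p of 0.00178, beside 31%. At 4 hpf amanitin held bmp7a at 0.335 RPKM, 20 reads, and id1 at 1.32 RPKM, 24 reads, both more than 4-fold below WT, which 5.17% of 13827 genes were. smad5 was at 52.7 RPKM there.

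Under cycloheximide, when no new protein is made, 5 of the 6 genes were lower at 6 hpf, and the change of id1 was the smallest of the 5, a difference that was not tested. id1 was at 126 RPKM, a change of -1.90 ± 0.15 from WT, whereas eve1 was at 0.148 RPKM, 1 read, and bmp4 at 0.881 RPKM. bmp7a was at 4.83 RPKM and cdx4 at 2.15 RPKM. All 5 were called lower, with adjusted p-values of 1.06e-05 to 0.000227, beside 23.0% of genes. smad5 was at 27.7 RPKM, not called at -0.13 ± 0.14, but called lower at -0.68 with an adjusted p of 0.005 after rescaling. At 4 hpf cycloheximide held id1 at 8.00 RPKM and bmp7a at 0.722 RPKM, both more than 4-fold below WT, which 3.14% of 13987 genes were, and there the id1 log2 ratio of -4.18 was below that of bmp7a at -2.65. cdx4 was at 1.27 RPKM there, from 66 reads. The 4 hpf inhibitor values have no replicate check.

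Introns report unspliced, recently made RNA. In WT total RNA bmp7a had no intron read at 2 hpf, 3.23 RPKM at 4 hpf, and 2.16, 1.83 and 1.92 RPKM at 6 hpf. Its intron level was thus higher at 4 than in any 6 hpf library, whereas its exon level was lower at 4 hpf than in each of them. smad5 had no intron read at 2 hpf, which allows up to 0.0288 RPKM, 0.786 RPKM at 4 hpf, and 3.82, 4.15 and 3.70 RPKM at 6 hpf. With amanitin smad5 introns were at 0.004 RPKM, a single read, at 4 hpf, and at 0.020 RPKM, 2 reads, at 6 hpf. The smad5 intron RPKM therefore rose over the stages in which its exon RPKM fell, although that exon fall depends on scaling, as given above. The smad5 intron RPKM was close to 0 with the polymerase blocked.

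Among the loss conditions the smad5 introns were lowest where Nanog MO was present. At 6 hpf they were at 2.19 RPKM in Nanog MO, and at 2.19 and 1.63 RPKM in Nanog+SoxB1 MO. MZpou5f1 held 4.43 RPKM, MZpou5f1 with SoxB1 MO 4.22 RPKM, triple loss 1.29 RPKM and cycloheximide 1.195 RPKM. All 6 hpf libraries with Nanog MO lay below the WT range of 3.70 to 4.15 RPKM. The 2 MZpou5f1 libraries without Nanog MO lay above it. In the limma fit of log2(intron RPKM + 0.1) over 14336 genes, smad5 was lower in Nanog+SoxB1 MO by -1.004 ± 0.163, with an adjusted p of 0.0249. The call was lost without any one of the WT libraries or without Nanog+SoxB1 MO replicate 2, at 0.0579 to 0.0889. No test of the difference between the exon and intron changes was made. At 4 hpf smad5 introns were at 0.82 RPKM in Nanog MO, just above WT at 0.786 RPKM. They were at 0.611 RPKM in Nanog+SoxB1 MO, 0.618 in MZpou5f1 with Nanog MO and 0.668 RPKM in triple loss. The 4 hpf loss libraries without Nanog MO held 0.938 to 1.097 RPKM, and the 4 hpf intron values were not tested.

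**Figure D4:**
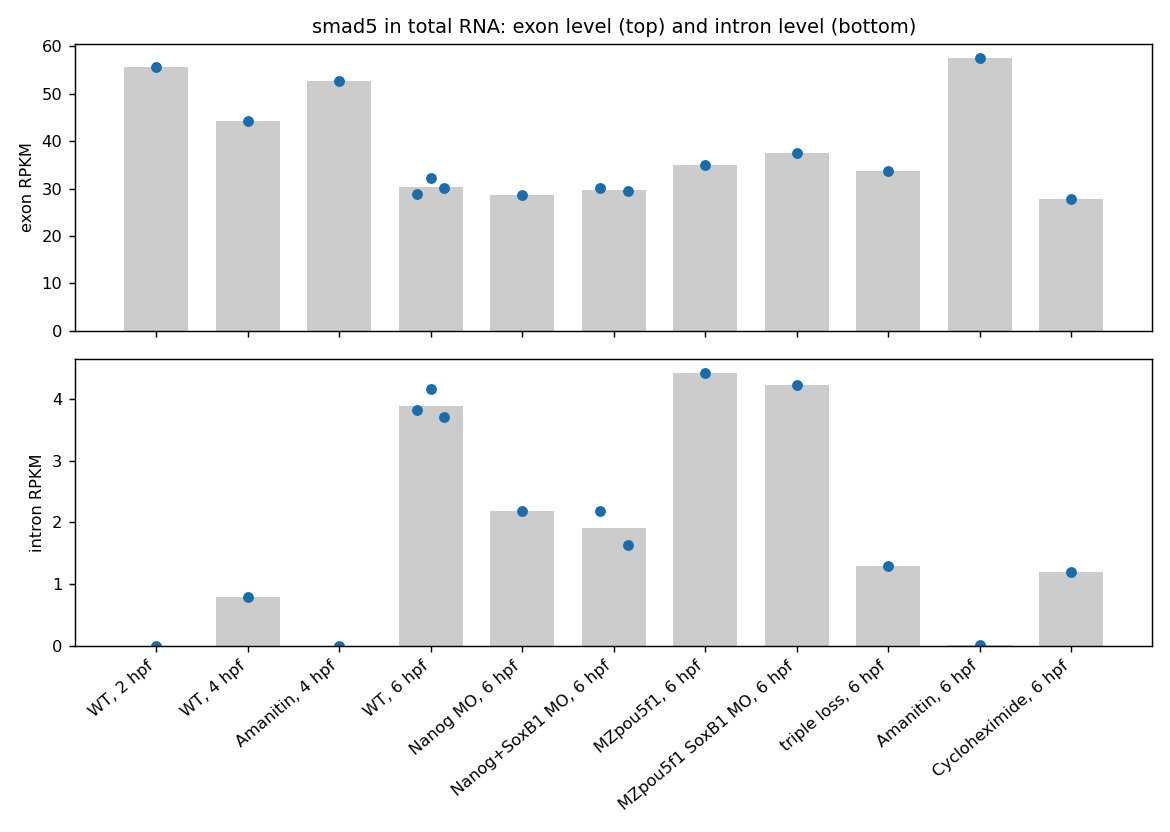
smad5 in total RNA, exon RPKM (top) and intron RPKM (bottom), by condition and stage. Points are libraries and bars are group means, both axes starting at 0. The exon level at 6 hpf is between 27.7 and 37.5 RPKM except with amanitin, while the intron level is 0 at 2 hpf, near 0 with amanitin, and 1.29 to 2.19 RPKM in the 6 hpf libraries with Nanog MO against 3.70 to 4.15 RPKM in WT.

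All 6 genes were lower at the intron level in Nanog+SoxB1 MO than in WT, where 11.5% of genes were called lower. bmp7a introns were at 0.079 and 0.030 RPKM, from 2 reads and 1 read, a change of -3.76 ± 0.22 with an adjusted p of 0.00533. bmp4 introns were at 0.743 and 0.859 RPKM against 3.35 to 4.71 RPKM in WT, a change of -2.14 ± 0.21 with an adjusted p of 0.00984. cdx4 introns were at 3.30 and 1.99 RPKM against 6.85 to 10.7 RPKM, a change of -1.63 ± 0.32 with an adjusted p of 0.0369. Neither id1 nor eve1 had an intron read in the 2 libraries, and both were called, at 0.000299 and 0.00575. Equal values of 0 add no spread, so the size and p-value of both changes rest on the pseudocount and leave out counting error. With 3 reads per library as the floor, id1 introns were at least 3.57-fold and 4.73-fold lower than the WT mean of 36.1 RPKM, and eve1 introns at least 4.41-fold and 5.85-fold lower than 8.29 RPKM. The id1 introns in WT rest on 13 to 19 reads and the eve1 introns on 9 to 34. The cdx4 call was lost when any of the 5 replicated libraries was left out, at 0.0815 to 0.136. The bmp4 call was lost without WT replicate 1 or either Nanog+SoxB1 MO replicate, at 0.0511 to 0.0595.

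Splicing block moved the id1 intron most. With U1U2 MO at 4 hpf the id1 intron was at 147 RPKM against 19.1 RPKM in WT, a log2 ratio of 2.93 that exceeded 99.3% of the 7941 genes compared. The median of those genes was -0.91. The smad5 introns were at 0.111 against 0.786 RPKM, a ratio of -2.07, and those of bmp7a at 2.34 against 3.23 RPKM. The exon levels in the same library were 83.0 RPKM for id1, 2.19 RPKM for bmp7a and 25.7 RPKM for smad5, each below WT. cdx4 exons were at 1.73 RPKM against 0.643 RPKM in WT. This is a single library with no test, and none of the 6 differed 4-fold in exons, which 1.39% of genes did downward.

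In triple loss embryos with rescue mRNA, 4 of the 5 genes that were low without it stood above WT at 8 hpf. In poly(A)+ RNA at 6 and 8 hpf, bmp7a was at 0.716 and 0.764 RPKM in triple loss, 42.9 and 54.1 RPKM with rescue, and 62.6 and 31.2 RPKM in WT. id1 was at 20.7 and 18.8 RPKM in triple loss, 471 and 588 RPKM with rescue, and 454 and 400 RPKM in WT. With rescue id1 lay above WT at both stages, and bmp7a below it at 6 hpf and above it at 8 hpf. bmp4 was at 1.32 and 2.04 RPKM, 8.34 and 14.4 RPKM with rescue, and 18.004 and 10.7 RPKM in WT. eve1 was at 0.266 and 0.190 RPKM, 45.4 and 103 RPKM with rescue, and 139 and 75.5 RPKM in WT. Both were below WT at 6 hpf and above it at 8 hpf.

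cdx4 was the exception. It was at 1.82 and 1.73 RPKM in triple loss, 17.6 and 39.1 RPKM with rescue, and 109 and 203 RPKM in WT, so that it stayed below WT at both stages. smad5 was at 151 and 108 RPKM in triple loss, 177 and 145 RPKM with rescue, and 111 and 88.0 RPKM in WT. In poly(A)+ RNA smad5 was thus highest in the rescued library at both stages, whereas in total RNA at 4 hpf it was at 32.4 RPKM with rescue, 26.3 in triple loss and 44.3 RPKM in WT. At 4 hpf, in total RNA, rescue held bmp7a at 2.45 RPKM against 0.488 in triple loss and 7.16 RPKM in WT, and id1 at 97.0 RPKM against 24.2 and 154 RPKM. The marker sums moved with rescue. In poly(A)+ RNA at 6 and 8 hpf the yolk syncytial layer sum was 1.87 and 1.41 RPKM in triple loss, 119 and 148 RPKM with rescue, and 193 and 227 RPKM in WT. The enveloping layer sum was 868 and 1053 RPKM, 2449 and 3420 RPKM with rescue, and 3733 and 4776 RPKM in WT. The oocyte-derived sum was 362 and 236 RPKM, 195 and 142 RPKM with rescue, and 43.0 and 30.5 RPKM in WT. Their part in the rescue values was not tested.

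**Figure D5:**
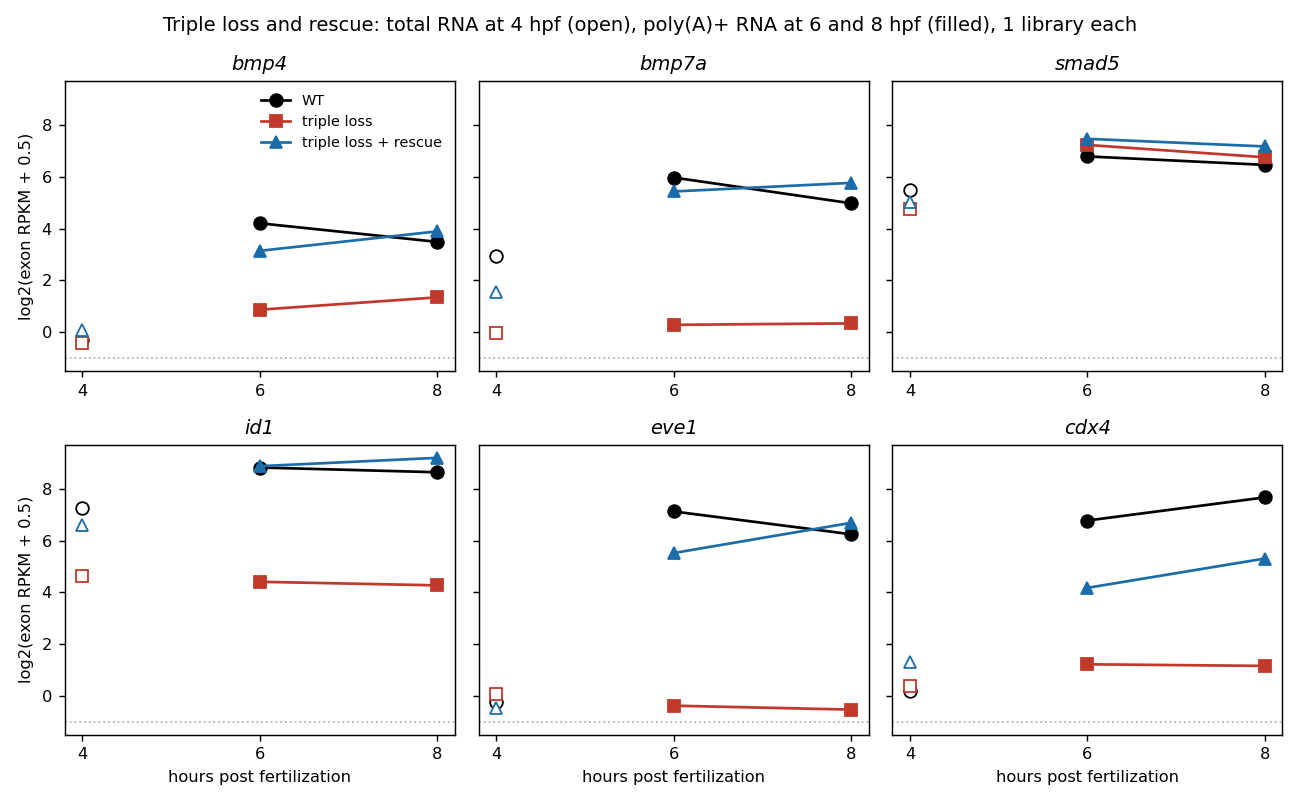
Exon level of each gene as log2(RPKM + 0.5) in WT, triple loss and triple loss with rescue mRNA, against hours post fertilization. Open symbols are total RNA and filled symbols poly(A)+ RNA, 1 library each, and the dotted line marks a level of 0. With rescue, bmp4, bmp7a, id1 and eve1 are above WT at 8 hpf, while cdx4 lies between triple loss and WT.

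A limma fit of these 9 libraries, with stage as a block, called 3 of the 6 lower in triple loss than in WT, beside 4.64% of 16028 genes. They were bmp7a at -4.43 ± 0.71, cdx4 at -3.96 ± 1.09 and id1 at -3.81 ± 0.49, with adjusted p-values of 0.0205, 0.0476 and 0.0116. bmp4 at -1.87 ± 0.59 and eve1 at -4.66 ± 1.46, both near 0 in all 3 conditions at 4 hpf, were not called. Rescue against triple loss gave 1 call of 6, beside 0.605% of genes called higher. It was id1 at 3.79 ± 0.49 with an adjusted p of 0.0163, while bmp7a at 4.06 ± 0.71 had 0.0603. Stage and RNA selection share the block, there is no replicate of a condition, and the calls depend on single libraries. Leaving out 1 library also moved the calls over all 16028 genes, which ran from 45 to 7908 in triple loss against WT. In rescue against triple loss they ran from 27 to 2380. Without the triple loss library at 4 hpf, 5 of the 6 genes were called in each contrast. Without the WT library of that stage 5 of the 6 were called in triple loss against WT. Without the WT library at 6 or 8 hpf, or the triple loss library at 6 hpf, none of the 6 was called in either contrast. Without the triple loss library at 8 hpf 1 was called in triple loss against WT and none in the other contrast. The rescue call was also lost without the rescued library at 6 or 8 hpf, at adjusted p-values of 0.105 and 0.113. cdx4 in triple loss against WT was lost without any of 7 libraries, at 0.0775 to 0.229, and bmp7a was added to the rescue calls without the rescued library at 4 hpf, at 0.0494.

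Translation was read for smad5 before the zygotic genome is active. In the WT profiling library at the 64-cell stage smad5 had 343 footprint reads, which is 649 RPM (reads scaled to library size, exact 95% Poisson interval 582 to 722), beside 311 RPM in the input. Nanog+SoxB1 MO had 641 footprint reads, 847 RPM (782 to 915), beside 422 RPM in the input. Footprints per input were therefore 2.09 (1.82 to 2.39) in WT and 2.01 (1.81 to 2.22) in Nanog+SoxB1 MO, with intervals that overlap. The median over transcripts at 10 or more input reads was 0.538 in WT and 0.527 in Nanog+SoxB1 MO, and smad5 ranked 1134 of 7312 and 1078 of 7296 in this ratio. By footprints alone smad5 ranked 193 in WT and 143 in Nanog+SoxB1 MO. The Nanog+SoxB1 MO library held 1.30 times the footprints (1.14 to 1.49) and 1.36 times the input (1.22 to 1.51) of WT. These intervals cover counting error only, and with 1 library per condition there is no test.

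The rest of the pathway was read from 54 entries, of which 48 are not among the 6 and 36 of those passed the filter at 6 hpf. In Nanog+SoxB1 MO against WT, 23 of the 36 were lower and 3 higher, beside 14.0% and 30.3% of all genes. Their median change was -1.55 where that of all genes was 0.30, a description, since the list was chosen with earlier results known. By role, 10 of 12 ventral targets and 6 of 6 posterior genes were lower, these counts including id1, eve1 and cdx4, as were 4 of 5 ligands, including bmp4 and bmp7a. Among extracellular members 4 of 6 were lower and 2 higher. Among intracellular members 3 of 9 were lower, and among receptors 1 of 4 was lower and 1 higher. The counts by role, in every role, are too small to set against those shares. The largest falls were in BAMBI, a decoy receptor that is itself a BMP target, at -5.45 ± 0.25, in TFAP2C, an ectodermal transcription factor, at -4.35 ± 0.24, and in admp, a BMP-like ligand of the organizer, at -4.07 ± 0.23. The rises were FST (ENSDARG00000052846), which codes for the ligand-binding protein follistatin, at 1.02 ± 0.29, CRIM1 at 0.89 ± 0.25 and the receptor ACVR2B at 0.38 ± 0.12. SMAD1, the partner of smad5, was lower by -1.997 ± 0.392 with an adjusted p of 0.00696, and chrd, which codes for the antagonist Chordin, by -1.38 ± 0.20 with 0.00198.

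Under Nanog MO 18 of the 36 were lower and 3 higher, beside 10.1% and 19.0% of all genes, with a median of -1.10 against 0.21 over all genes. The largest falls were in admp at -5.27 ± 0.29, tbx16, a T-box factor of the mesoderm, at -3.58 ± 0.17, and CYP26A1, a retinoic acid-degrading enzyme, at -3.48 ± 0.34. admp was listed at 0 in the Nanog MO library, against 17.4 to 20.1 RPKM in WT, so the size of its change depends on the pseudocount. In triple loss 23 were lower and 4 higher, beside 15.7% and 32.8% of all genes, with a median of -1.56 against 0.40. admp was again listed at 0, which leaves its rank to the pseudocount, and the next largest falls were in BAMBI at -5.05 ± 0.31 and in the ligand BMP2 (ENSDARG00000041430) at -4.78 ± 0.51. BMP2 was at 44.9 to 54.4 RPKM in WT, 28.2 RPKM in Nanog MO, 2.19 and 7.05 RPKM in Nanog+SoxB1 MO and 1.33 RPKM in triple loss. The largest rise in triple loss was in gdf6a, another BMP-like ligand, at 2.01 ± 0.41, from 0.225 to 0.707 RPKM in WT to 3.36 RPKM. Of the 36, MZpou5f1 had 6 lower and 0 higher, beside 2.73% of all genes lower, with a median of -0.11 against 0.15. With SoxB1 MO added 12 were lower and 2 higher, beside 9.04% of all genes lower, with a median of -0.50 against 0.25. Of the calls over all genes, 45% were higher in MZpou5f1 and 64.7% in MZpou5f1 with SoxB1 MO. Under amanitin 25 were lower and 5 higher, beside 28.7% of all genes lower and 31% higher, with a median of -2.66. Under cycloheximide 23 were lower and 2 higher, beside 23.0% lower, with a median of -1.29. Of the calls over all genes under cycloheximide, 62.1% were higher. Whether the falls with factor loss differ from those under the inhibitors was not tested. These conditions share the WT libraries.

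Across the 31 exon libraries, Pearson correlations of log2(RPKM + 0.5) describe which genes ran together. They pool 24 total RNA and 7 poly(A)+ libraries, which share stages and controls and differ in depth, so no test was made. bmp4 and cdx4 correlated at 0.925, bmp7a and eve1 at 0.916, and bmp7a and id1 at 0.865, while bmp4 and id1 stood at 0.527. smad5 stood at 0.160 to 0.197 with the other 5. Its level was 25.7 to 57.6 RPKM in total RNA and 88.0 to 254 RPKM in poly(A)+ RNA, and the part of the RNA selection in its correlations was not tested. Of the 12724 genes that reached 5 RPKM in 2 or more libraries, only those with a symbol were ranked. Among these the gene nearest to eve1 was NR0B2 at 0.992. The one nearest to bmp7a was stm at 0.962, followed by NOTUM at 0.951. id1 was nearest to DUSP6 at 0.927 and to BMP2 (ENSDARG00000041430) at 0.921, and cdx4 to MN1 at 0.945 and her7 at 0.936. smad5 was nearest to BOP1 at 0.971, and bmp4 to si:ch211-202h22.8 at 0.940.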

How the data were processed

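Deposited were RPKM values for exons and introns, 1 column per library, and values for ribosome profiling. The profiling values are named as RPKM by the submitters but were treated here as RPM. All of them in a column were multiples of 1 step (tolerance 0.1 read), whatever the transcript. That step was taken as the value of 1 read, so whole reads were recovered. Zv9 (danRer7) is the build, and TopHat2 2.0.7, Bowtie 0.12.9 and CASAVA 1.8.2 the tools, listed in the submitters' processing notes, with no roles given. Libraries were strand-specific per the labels' protocols.

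Steps of the low RPKM values gave relative depth and, for low values, whole reads, since no read totals are given in the sources used here. Poisson and binomial intervals and the floor of 3 reads cover counting error only. Two-sided limma tests (version 3.58.1, R 4.3.3; eBayes with trend) were run on log2(RPKM + 0.5), or + 0.1 for introns, for entries at 1 RPKM or more (introns 0.1) in at least 2 libraries, and the fitting was tested on simulated data. The exon pseudocount tends to shrink changes of low genes. Where introns have 0 reads, the pseudocount sets the size of the change instead. The id1 intron change in Nanog+SoxB1 MO was -8.50 at a pseudocount of 0.1 and -6.19 at 0.5. Entries that join overlapping genes, 846 of 27997 for exons and 626 of 24750 for introns, were left out. A call is an adjusted p (Benjamini-Hochberg, over all genes of a contrast) below 0.05. The 6 hpf fit took 11 libraries with 3 residual degrees of freedom, the 4 hpf and rescue fits 8 and 9 with 4, the WT stage fit 7 with 3.

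The 6 members, the pathway list and the markers were chosen with earlier results of these data known. Of the 69 names in the pathway list 48 matched the symbol table, as 54 entries, and some names were respelled to match it after the files were seen. The text names the members and, per contrast, at most the 3 largest falls and 3 largest rises called among the list; SMAD1 and chrd were added after their values were seen. Per member, the genes with the highest correlation over 31 libraries, among those with a symbol, are described. Alternatives were pseudocounts of 0.1 and 1, no filter, a filter at 5 RPKM, median rescaling, a replicate block and leaving out each library. No sequences are printed.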

Additional observations from a re-analysis of the deposited data

Results flagged for a closer look

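cdx4 pointed in opposite directions at 4 and 6 hpf in 4 conditions, counting only those whose 4 hpf ratio differed from WT beyond counting error. In Nanog MO its log2 ratio to WT was 1.84 at 4 hpf and -2.84 at 6 hpf, and in Nanog+SoxB1 MO 1.11 and -1.78. In MZpou5f1 it was 1.52 and -3.37, with the 4 hpf library being the one whose pou5f3 level goes against its label, and in cycloheximide 0.63 and -4.39. The 4 hpf values compare single libraries with 13 cdx4 reads in WT, so the difference between stages was not tested.

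bmp4 did the same in MZpou5f1, at 0.72 at 4 hpf, from 37 reads against 12 in WT, and -4.38 at 6 hpf. That difference was not tested either.

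In the profiling table, which was read here for smad5 alone, id1 had 5 footprint reads (6.60 RPM) in Nanog+SoxB1 MO and none in WT, where 0 reads allow up to 5.68 RPM. The id1 input held 2 reads in each.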

How the results depend on the processing

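The 5 genes other than smad5 kept their direction at 6 hpf under every exon alternative run, and the calls of amanitin, MZpou5f1 with SoxB1 MO and triple loss against WT were 5 or 6 genes in all of them. Without a filter on low values, 1 of the 6 genes was called in MZpou5f1 against WT at 6 hpf (3 as reported), 1 with Nanog MO at 4 hpf (2 as reported) and 0 in rescue against triple loss (1 as reported, 2 at a pseudocount of 0.1). Median rescaling reversed smad5 in WT at 6 against 4 hpf, to 0.0105. Leaving out 1 library at a time gave 4 to 5 calls in Nanog+SoxB1 MO against WT, 4 to 5 in Nanog MO, 1 to 2 in MZpou5f1, 0 to 2 in Nanog+SoxB1 MO against Nanog MO, 0 to 3 in triple loss against Nanog+SoxB1 MO, 1 to 3 with Nanog MO at 4 hpf, 0 to 1 with MZpou5f1 at 4 hpf, 0 to 5 in triple loss against WT, 0 to 5 in rescue against triple loss, and 3 to 4 at the intron level. These fits each have 1 library fewer, and the number of calls over all genes moved in them too. At 4 hpf it ran from 460 to 1264 with Nanog MO and from 4790 to 5854 with MZpou5f1. Lost calls were therefore not particular to the 6 genes. The cause of the other changes was not tested.

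Rescaling also moved the split of all calls at 6 hpf, with 68.3% of the calls in Nanog+SoxB1 MO against WT higher as reported and 48.4% after it. The replicate numbers of WT and Nanog+SoxB1 MO do not mark a shared batch in the labels. Within pairs of same-numbered libraries, the deviations from each group mean correlated at 0.0856 and 0.0625. The 2 Nanog+SoxB1 MO libraries deviate from their mean by mirror-image amounts, so the values of the 2 pairs are not independent. With a replicate block over those pairs, 7239 genes were called, against 7199 in the same 5 libraries without it. Genes under about 1 RPKM rest on a few reads, which limits bmp4, eve1 and cdx4 at 4 hpf.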
